A study of Homo sapiens with 32 samples.

Results

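Centrosomes are the microtubule-organising centres of animal cells. Each holds a pair of centrioles, barrel-shaped microtubule structures, inside a protein matrix that nucleates microtubules, and a centriole is also the base from which a cilium grows. Centrioles are copied once per cell cycle, and the centrosomes form the poles of the mitotic spindle. The 43 genes described here encode centrosome and centriole proteins: most carry a CEP symbol, and PCNT, PCM1, CDK5RAP2, ASPM, SPAG5, AKAP9, NIN, CENPJ, PLK4, STIL and OFD1 complete the set. They were chosen by name and function, out of 59788 genes with a span in the RefSeq table of GRCh38.p14. Earlier results of these data were known at the time, so comparisons of these genes with the background are descriptive. CENPJ is listed there under its newer symbol CPAP.

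The measured quantity was N6-methyladenosine (m6A), a methyl mark that a METTL3-containing enzyme complex places on adenosines of RNA. RNA fragments carrying the mark were enriched with an antibody and sequenced (MeRIP-seq), and the deposited data are lists of enriched regions, called peaks. The RNA was the ribosome-depleted, chromatin-associated fraction of A375, an established human melanoma cell line. One group is 2 libraries of A375 cells given a short hairpin against METTL3 (shMETTL3, genotype labelled METTL3 knockdown), the other 2 libraries given a control hairpin (shControl, genotype labelled WT). All 4 received the same m6A antibody kit. The remaining samples of the 32 in the series, inputs included, are not analysed here. Without them a lower RNA level and a lower methylation cannot be told apart, nor can fewer cells with an RNA and less RNA per cell. The number of reads behind each list is unknown. Whether replicates came from different cultures is not given, and p-values then measure a spread that may be technical.

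The knockdown lists held 44108 and 42969 peaks and the control lists 45345 and 47692. METTL3 itself had 5 peaks in each of the 4 lists; peak lists do not measure how much of an RNA is present, so this does not check the knockdown. Of 10 genes of the melanocyte lineage, MITF and PAX3 had a peak in every list and the other 8, among them SOX10, PMEL and MLANA, had none in any. Summed over these 10 genes the lists held 11 and 12 peaks in knockdown and 9 and 12 in control. Among markers of other cell types, 1 of 8 keratinocyte genes (DSP), 1 of 8 fibroblast genes (PDGFRB) and 0 of 8 leukocyte genes had a peak in every list.

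Of the promoter windows at the outermost annotated start of a gene, 3 were reached by a peak on the strand of the gene in both lists of a group, and these are shown. The outermost windows of CEP192, CEP350, CEP97 and SPAG5 were reached in 1 list of a group at most. A window at a further start inside each of PLK4, CEP44 and CEP170 lay under a peak in all 4 lists. Another further window of PLK4 (chr4:127881381-127881680) had 251 and 237 bases under a peak in knockdown and none in control. Control replicate 2 had a peak beyond that window, from 0.823 kb into the gene. These windows are not shown. Each runs from 250 bases before the start to 50 bases after it, 5′ to 3′ on the strand of the gene (RefSeq, GRCh38.p14). Capitals mark the bases under a peak in every list that has one there: all 4 lists for PCNT (chr21:46323906-46324205, plus strand) and ASPM (chr1:197146620-197146919, minus strand), and the 2 control lists for CEP126 (chr11:101914760-101915059, plus strand).
PCNT: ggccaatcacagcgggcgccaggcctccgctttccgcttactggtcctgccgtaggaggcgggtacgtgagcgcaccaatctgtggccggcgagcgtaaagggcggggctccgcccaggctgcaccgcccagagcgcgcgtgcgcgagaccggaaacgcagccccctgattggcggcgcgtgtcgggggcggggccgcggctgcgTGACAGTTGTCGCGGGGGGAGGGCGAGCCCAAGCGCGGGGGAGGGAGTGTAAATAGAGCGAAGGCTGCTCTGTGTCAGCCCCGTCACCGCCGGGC
ASPM: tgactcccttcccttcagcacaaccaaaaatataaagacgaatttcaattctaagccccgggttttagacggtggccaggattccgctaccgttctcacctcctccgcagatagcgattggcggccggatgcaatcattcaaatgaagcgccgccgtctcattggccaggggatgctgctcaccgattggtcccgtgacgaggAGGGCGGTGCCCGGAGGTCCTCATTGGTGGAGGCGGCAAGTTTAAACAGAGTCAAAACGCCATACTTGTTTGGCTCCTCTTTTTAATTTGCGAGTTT
CEP126: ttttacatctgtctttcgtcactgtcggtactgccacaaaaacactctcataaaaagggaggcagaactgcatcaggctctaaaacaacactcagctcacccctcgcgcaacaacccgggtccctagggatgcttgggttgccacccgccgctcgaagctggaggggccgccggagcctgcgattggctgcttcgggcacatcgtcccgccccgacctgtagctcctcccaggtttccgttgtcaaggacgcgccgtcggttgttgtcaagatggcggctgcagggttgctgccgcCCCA
The capitals cover 95 bases in PCNT, 97 in ASPM and 4 in CEP126. In CEP126 the peak lies mostly further into the gene. In ASPM it also runs on past the window, to 0.408 kb from the gene start in control replicate 1. The letters GGAC, the core of the usual m6A sequence context, were searched on the strand of the gene, in the windows only. They occur 0 times in the PCNT window, 0 in ASPM and 1 in CEP126, outside the capitals. Parts of the peaks beyond a window were not searched, so these counts do not describe whole peaks. They occur in 35 of the 52 windows listed for 39 of the genes (67.3%), and in 66.3% of all 35116 windows of the table. No window was matched for CEP78, CEP170B, CEP250 and PCM1.

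Taken over the 43 genes, the knockdown lists held fewer peaks than the control lists. Peaks with their summit inside one of the genes numbered 330 and 331 in knockdown replicates 1 and 2, against 433 and 438 in control replicates 1 and 2. The 2 knockdown values lie close together and well below both control values. The means were 330.5 ± 0.707 in knockdown and 435.5 ± 3.54 in control (SD, n = 2 each), a difference of -105 peaks and a ratio of 0.759. With 2 libraries a group, a two-sided exact permutation test cannot go below p = 0.333, and it gave that value. For all peaks of the lists the ratio was 0.936. As a share of their list, the genes held 0.748% and 0.770% of peaks in knockdown and 0.955% and 0.918% in control.

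Peaks of the 4 lists that overlapped on the same strand were merged to loci, which gave 530 loci in 42 of the genes. CEP41, whose product acts in cilia, had no peak in any list. Of these loci 232 (43.8%) were in all 4 lists, against 35.7% of the 66409 loci of the series. Loci found in both knockdown lists but no control list are called knockdown-only, and those found in both control lists but no knockdown list control-only. Knockdown-only loci were few: 11 of the 258 loci in both knockdown lists (4.26%, 95% Wilson interval 2.4% to 7.47%), where the background was 18.9% over all loci and 18.7% over those in gene spans. Control-only loci numbered 88 of the 378 loci in both control lists (23.3%, 19.3% to 27.8%), near the background of 22.6% over all loci and 22.1% in gene spans. Pooled over loci, the lower number of peaks in knockdown thus went with a share of lost loci like the background and a share of gained loci well under it. Per gene, among genes with at least 10 loci, the median control-only share was higher: 22.5% in 24 members against 16.7% over all 1855. The median knockdown-only share was 0% against 9.09%. These medians were not tested. Intervals cover counting error only, and loci of 1 gene are not independent.

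Of the 258 loci in both knockdown lists, a further 15 had a peak in 1 control list. Of the 378 in both control lists, 58 had a peak in 1 knockdown list. Over all loci of the series these numbers were 3219 of 33195 and 4670 of 36660. The second kind was the more frequent in both, by a larger factor in these genes than over the series. Of the 99 loci that were control-only or knockdown-only, 88.9% were control-only, against 56.9% over all such loci of the series. In 23 of the 28 genes with such a locus (82.1%) control-only loci were the more frequent, in 3 the knockdown-only loci and in 2 neither. The background was 51.6% of 7447 genes with more control-only loci and 42.6% with more knockdown-only loci.

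Gene by gene, 36 of the 43 had at least 10 peaks over the 4 lists. In 19 of them (52.8%) both knockdown lists had fewer peaks than either control list, where the background was 31.4% of 6181 genes. In 3 (8.33%) both knockdown lists had more peaks than either control list, against a background of 20%. These 3 were CEP72, CEP128 and CEP85L, and in the remaining 14 the groups overlapped. In the 36 genes 11 of 255 loci were knockdown-only (4.31%, background 16.5%) and 85 of 371 control-only (22.9%, background 20.7%). A gene whose control lists hold many peaks passes this minimum more easily, in the members as in the background. Among genes with at least 10 loci, 22 of 24 had a ratio of mean peak numbers, knockdown over control, below 1 (91.7%), and the median ratio was 0.745. Over all 1855 genes with as many loci, 59.2% were below 1 and the median was 0.90.

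**Figure D1:**
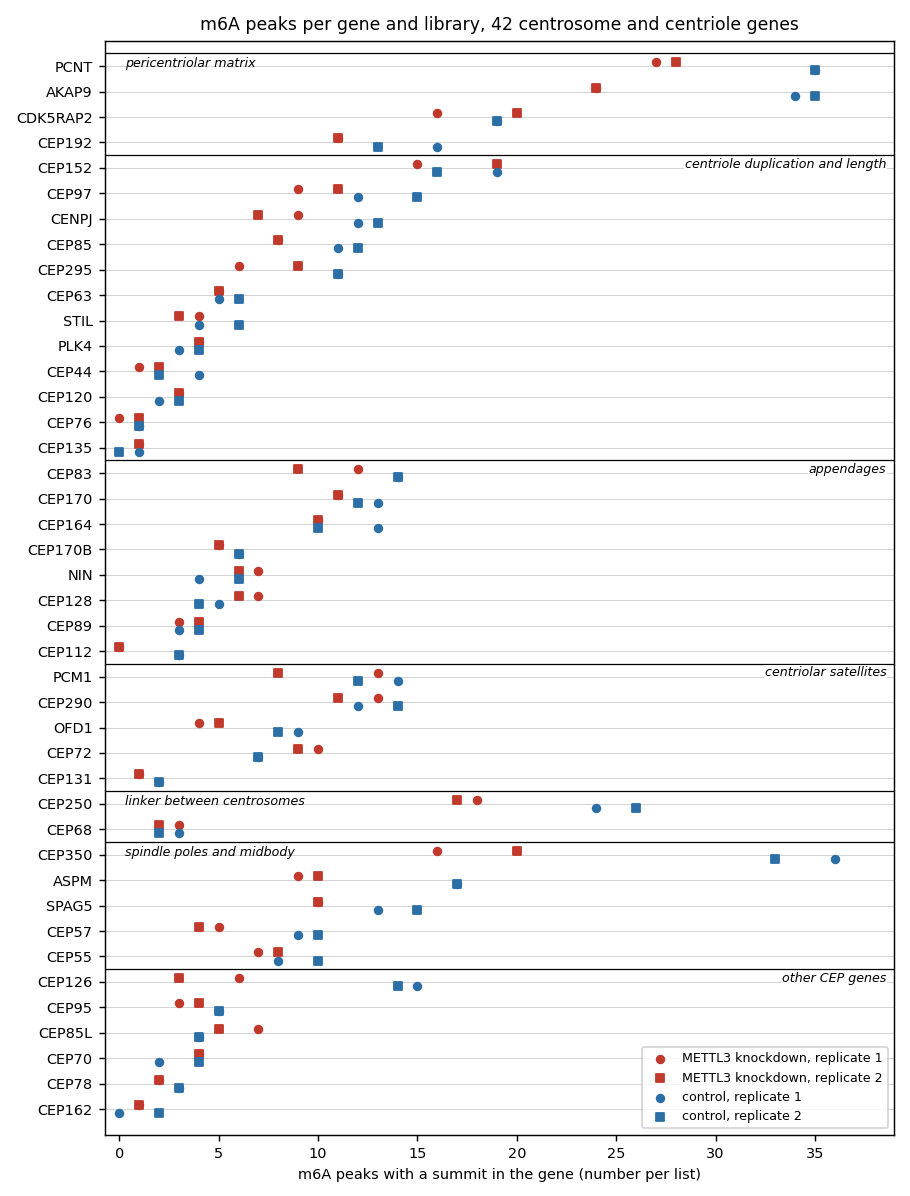
Number of m6A peaks with a summit in each of 42 centrosome and centriole genes (x axis), in the 2 knockdown lists (red, upper) and the 2 control lists (blue, lower), with circles for replicate 1 and squares for replicate 2. CEP350, AKAP9, PCNT, CEP126 and ASPM have both red points left of both blue points, and CEP72, CEP128 and CEP85L the reverse.

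**Figure D2:**
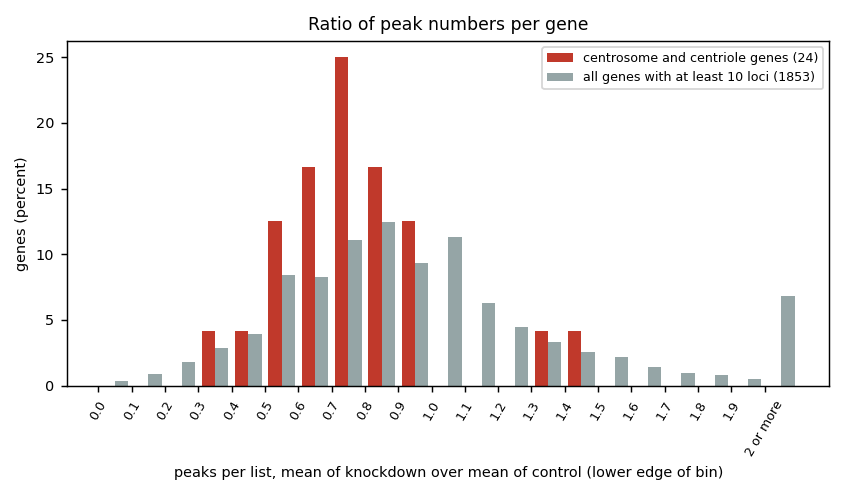
Ratio of mean peak number in knockdown over control per gene (x axis, bins of 0.1), as a percent of genes, for the 24 centrosome and centriole genes (red) and all 1853 genes with at least 10 loci and a control peak (grey). The red bars lie below 1 for 22 of 24 genes, and the grey bars for 1099 of 1853.

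The genes of spindle poles, the midbody and microtubule attachment showed the lowest ratio of the 7 role groups. Their 5 members had 47 and 52 peaks in knockdown and 83 and 85 in control, a ratio of 0.589 where that of all peaks was 0.936. Of their loci 2 of 40 were knockdown-only (5%, against 18.9% over all loci) and 29 of 76 control-only (38.2%, against 22.6%). The group of other CEP genes had a like control-only share, 10 of 26 (38.5%), with a ratio of 0.689. In the remaining role groups the control-only share lay between 13.5% and 21.3%. CEP350, which anchors microtubules at the centrosome, had 16 and 20 peaks in knockdown and 36 and 33 in control. Its lists did not overlap, and its 12 control-only loci, beside 0 knockdown-only ones, were the most of any of the genes. Of the 12, 11 lay in the first 100 kb of the gene and 5 were direct neighbours along it. With only peaks of a fold of at least 4, CEP350 had 6 control-only and 2 knockdown-only loci. The gene still kept 14 loci in all 4 lists, and one of these was the locus of the set with the highest rank in its weakest list: at chr1:180011810-180012038 the fold enrichment was 11.7 and 10.3 in knockdown and 15.3 and 11.5 in control. The fold is the authors' own enrichment value for the peak, and serves here to rank peaks within a list. Whether the inputs entered it is not stated. That locus stood at or above the 98.7th percentile of folds in every list.

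ASPM, a spindle pole protein whose loss causes a small brain, had 9 and 10 peaks in knockdown and 17 and 17 in control. The groups were apart, and most of the control-only loci lay towards the end of the gene. A single broad locus of 4712 bp (chr1:197100502-197105213), the widest of the set, was in all 4 lists, with folds of 5.43 and 5.49 in knockdown and 3.88 and 4.88 in control. Downstream of its summit ASPM had 9 more loci, of which 6 were control-only and 0 were in both knockdown lists. Upstream of it, 6 loci were in all 4 lists, including the one at the gene start whose sequence is shown above. The seventh control-only locus lay 16.6 kb into the gene (folds of 4.22 and 4.21 in control), and the single knockdown-only locus of ASPM at 7.12 kb (4.24 and 3.64 in knockdown). With only peaks of a fold of at least 4 the balance turned, to 3 knockdown-only and 2 control-only loci.

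CEP57, which helps attach microtubules to the centrosome, had 5 and 4 peaks in knockdown and 9 and 10 in control. All 3 of its control-only loci were neighbours, between 17.6 and 19.2 kb from the gene start, and the one furthest into the gene (chr11:95809099-95809475) had folds of 6.42 and 6.86 in the control lists. The nearest loci in all 4 lists lay 2.1 kb and 35.3 kb from the start. A locus on the strand opposite to CEP57, at the gene start, was also in all 4 lists.

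CEP55, which acts in the final separation of daughter cells, had 7 and 8 peaks in knockdown and 8 and 10 in control, so its lists touched. It still had 4 control-only loci, 3 of them neighbours between 25.7 and 27.5 kb from the start, and 1 knockdown-only locus at 23.5 kb. SPAG5, encoding the spindle protein astrin, had 10 and 10 peaks in knockdown and 13 and 15 in control, with 3 control-only loci and 8 in all 4 lists.

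**Figure D3:**
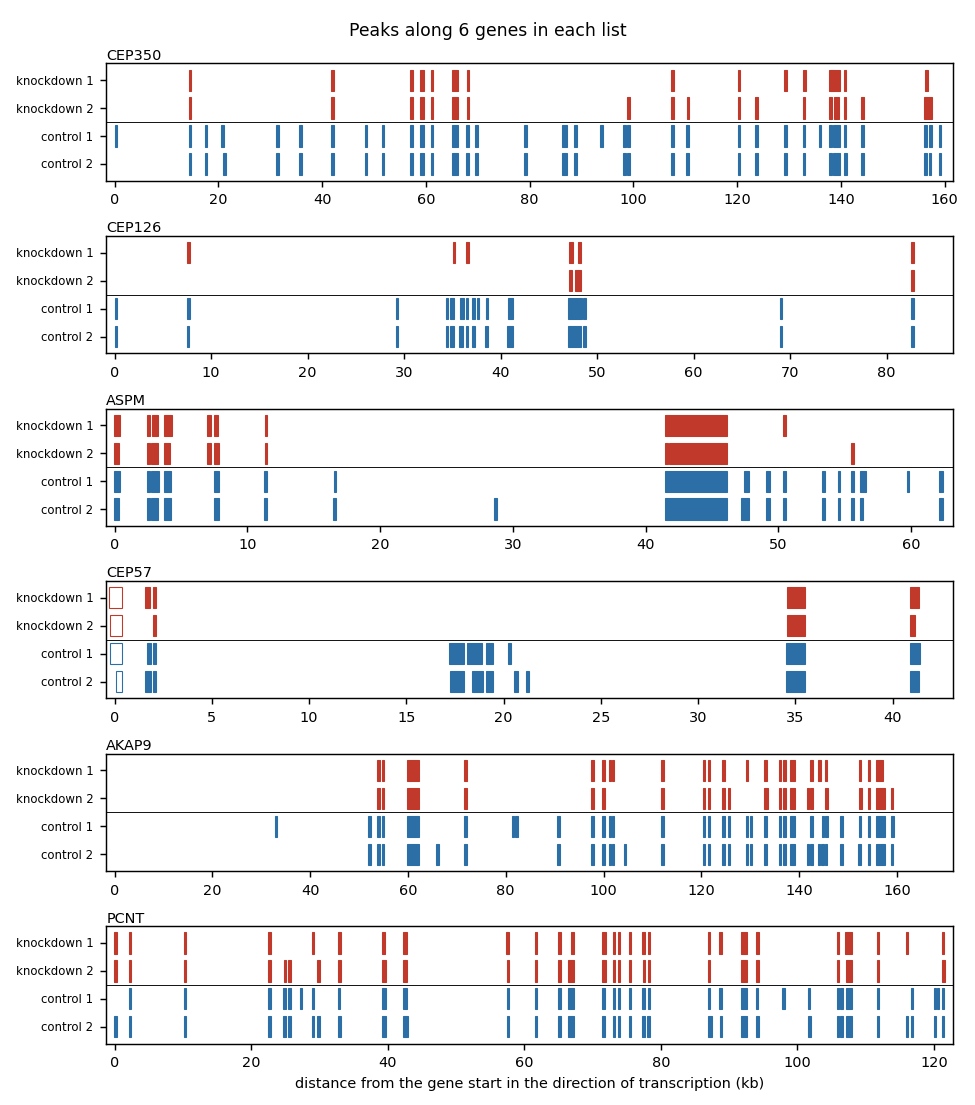
Peaks along 6 genes, drawn by distance from the gene start in kb, in the 2 knockdown lists (red, upper rows) and the 2 control lists (blue, lower rows); open boxes are peaks on the strand opposite to the gene. In CEP350 11 of the 12 control-only loci lie in the first 100 kb, in ASPM 6 lie after the 4712 bp locus, and in CEP57 3 lie side by side.

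In the pericentriolar matrix, the protein cloud from which microtubules grow, the 4 genes had 78 and 83 peaks in knockdown and 104 and 102 in control. Knockdown-only loci were again few: 1 of the 65 loci in both knockdown lists was knockdown-only (1.54%, against 18.9% over all loci) and 12 of the 89 in both control lists were control-only (13.5%, against 22.6%). PCNT, the scaffold protein pericentrin, had 27 and 28 peaks in knockdown and 35 and 35 in control. Its lists did not overlap, and with 24 loci in all 4 lists it kept more than any other of the genes. The 4 control-only loci of PCNT lay from 102 kb to 120 kb from the start of a gene of 122 kb. AKAP9, which tethers kinases and microtubule nucleators, had 24 and 24 peaks in knockdown and 34 and 35 in control, and kept 20 loci in all 4 lists. One of its 5 control-only loci (chr7:92070781-92070984) was the strongest such locus of the set, with folds of 8.97 and 9.98 in control and no knockdown peak.

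CDK5RAP2, which recruits the microtubule-nucleating gamma-tubulin complex, gave a different picture. It had 16 and 20 peaks in knockdown and 19 and 19 in control, and so no separation between the groups. It had 1 knockdown-only and 2 control-only loci and kept 10 in all 4 lists, and a further 16 of its 29 loci were in other combinations of lists. Without knockdown replicate 1 the balance turned, to 6 knockdown-only and 3 control-only loci. CEP192, needed to build the matrix at mitosis, had 11 and 11 peaks in knockdown and 16 and 13 in control, with 1 control-only locus.

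The 12 genes of centriole duplication and length had 65 and 73 peaks in knockdown and 85 and 89 in control. The kinase PLK4, which starts duplication, had 4 and 4 peaks in knockdown and 3 and 4 in control, and its partner STIL had 4 and 3 in knockdown and 4 and 6 in control. Neither had a control-only or a knockdown-only locus. CENPJ, which controls centriole length, had 9 and 7 peaks in knockdown and 12 and 13 in control, which did not overlap. It had 3 control-only loci and the second-ranked shared locus of the set (chr13:24912649-24913137), with folds of 11.8 and 12.3 in knockdown and 8.67 and 8.42 in control.

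CEP152, which brings PLK4 to the centriole, had 15 and 19 peaks in knockdown and 19 and 16 in control. These overlapped, with 1 knockdown-only and 2 control-only loci and 11 in all 4 lists. The third-ranked shared locus was one of these (chr15:48760188-48760366; folds of 9.04 and 9.93 in knockdown and 9.73 and 8.0 in control), and the fourth lay in AKAP9, with folds of 9.46 and 9.37 in knockdown and 8.19 and 7.98 in control. CEP63, the partner of CEP152, had 5 and 5 peaks in knockdown and 5 and 6 in control, with 1 knockdown-only and 2 control-only loci.

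CEP295, needed to turn a new centriole into a centrosome, was among the genes with the larger changes. It had 6 and 9 peaks in knockdown and 11 and 11 in control. Of its 10 loci in both control lists 5 were control-only, spread from 7.1 kb from the start to 0.405 kb from the end, and the other 5 were in all 4 lists. CEP97, a cap protein that limits centriole length, had 9 and 11 peaks in knockdown and 12 and 15 in control, with 2 control-only loci. CEP85 had 8 and 8 in knockdown and 11 and 12 in control, with 2 as well. CEP44, CEP76, CEP120 and CEP135 had at most 4 peaks in any list and no locus of either kind.

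Appendages are the spokes by which a mother centriole docks to membranes and anchors microtubules. Their 8 genes had 55 and 51 peaks in knockdown and 61 and 59 in control. CEP112 was the only gene that lost every locus: it had 0 and 0 peaks in knockdown and 3 and 3 in control. Its 3 loci lay between 4.73 kb and 8.80 kb into a gene of 557 kb, with control folds from 2.91 to 6.05. Among the 40 genes with loci common to the control lists this is 1 (2.50%), against a background of 9.44%, and no gene of 38 had all of its loci in both knockdown lists knockdown-only (background 10.1%). The genes have many loci each, which makes a complete loss or gain harder to meet.

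CEP83, an organiser of the distal appendages, had 12 and 9 peaks in knockdown and 14 and 14 in control. Its 4 control-only loci lay from 136 kb to 143 kb from the start, with folds of at most 4.36. With a fold of at least 4 or a −log10 q of at least 20 required, control-only and knockdown-only loci of CEP83 and of CEP170 were equal in number. CEP170, of the subdistal appendages, had 11 and 11 peaks in knockdown and 13 and 12 in control, with 2 control-only loci. CEP164, a distal appendage protein required for cilia, had 10 and 10 peaks in knockdown and 13 and 10 in control. With 2 knockdown-only loci, both within 5 kb of its end, and 1 control-only locus, it held the most knockdown-only loci of any of the genes. Without knockdown replicate 2, or without control replicate 2, it had 1 more control-only than knockdown-only locus. NIN, CEP89 and CEP170B had 3 to 7 peaks in each list and no locus of either kind. CEP128, one of the 3 genes where both knockdown lists had more peaks than either control list, had 7 and 6 peaks in knockdown and 5 and 4 in control. The mean of NIN was also higher in knockdown (6.5 against 5), but its lists touched.

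Centriolar satellites are granules that carry proteins to the centrosome and the cilium. PCM1, their scaffold, had 13 and 8 peaks in knockdown and 14 and 12 in control, which overlapped, and 3 control-only loci. OFD1 had 4 and 5 peaks in knockdown and 9 and 8 in control. One of its 2 control-only loci is on the strand opposite to the gene, where the span of TRAPPC2 overlaps it. CEP290, a protein of the ciliary transition zone, had 13 and 11 peaks in knockdown and 12 and 14 in control, with 1 locus of each kind. CEP72 ran the other way, with 10 and 9 peaks in knockdown and 7 and 7 in control, 1 knockdown-only and 0 control-only loci. CEP131 had 1 and 1 peaks in knockdown and 2 and 2 in control.

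CEP250, which links the centrosomes of a cell before mitosis, had 18 and 17 peaks in knockdown and 24 and 26 in control. The lists were apart, with 4 control-only loci and 13 in all 4 lists. In 3 of the 4 the span of the antisense gene CEP250-AS1 also holds the summit. The second-strongest control-only locus of the set was among these (chr20:35475433-35475594, control folds of 8.51 and 8.17). CEP68, the other linker gene, had 3 and 2 peaks in knockdown and 3 and 2 in control.

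CEP126, which is needed for cilium formation, had 6 and 3 peaks in knockdown and 15 and 14 in control. The lists lay far apart, with a ratio of 0.31, and 3.61% of the 1855 genes with at least 10 loci had a ratio as low or lower. Of its 14 loci in both control lists 9 were control-only (64.3%), and 2 were in all 4 lists. The control-only loci included the one at the gene start, whose window is printed above (folds of 3.50 and 2.35 in control), and a group of 5 between 34.5 kb and 41.1 kb from the start, with loci of other combinations among them. The 2 shared loci lay at 47.4 kb and 82.7 kb. With only peaks of a fold of at least 4, CEP126 had 2 control-only loci, and with a −log10 q of at least 20 it had 5. Knockdown-only loci numbered 0 in both cases. Among the other CEP genes, CEP85L had 7 and 5 peaks in knockdown and 4 and 4 in control, and CEP95 3 and 4 in knockdown and 5 and 5 in control. CEP70, CEP78 and CEP162 had 0 to 4 peaks in each list and no locus of either kind.

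**Figure D4:**
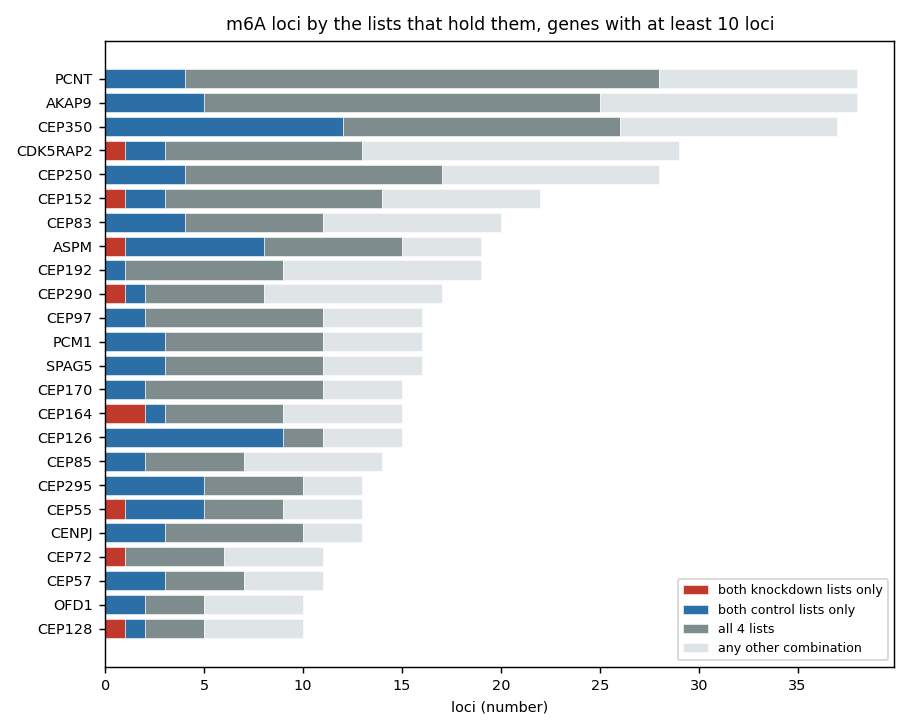
Number of loci (x axis) in each of the 24 genes with at least 10 loci, split by the lists that hold them: both knockdown lists only (red), both control lists only (blue), all 4 lists (dark grey) and any other combination (light grey). Blue segments are widest in CEP350 (12 loci), CEP126 (9) and ASPM (7), and no red segment exceeds 2 loci.

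The position and strength of the loci were described without a test. Most loci, 487 of 530 (91.9%), lay in gene interiors, more than 500 bp from the start and 2000 bp from the end. The genes are 18.3 kb to 557 kb long, so interiors make up most of each span. No background share was taken for this count. Introns count as part of the gene here. Near the gene end, 8 of the 20 loci in both control lists were control-only (40.0%), against a background of 16.2% of gene-end loci. That background was limited to loci on the strand of the gene, in genes with a strand in the RefSeq promoter table. The 8 loci lay in PCNT, CENPJ, CEP295, CEP170, ASPM, SPAG5, CEP350 and CEP95, 1 each. No gene-end locus was knockdown-only. At gene starts 1 of the 16 loci found in any list was control-only, that of CEP126. This count has a different denominator and no background share, so it cannot be compared with the share at gene ends.

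Wide loci were nearly always in all 4 lists, in these genes as over the series. All 22 loci of at least 1000 bp were in all 4 lists, where the background was 93.7% of loci as wide; a wide locus is more easily built where more lists have a peak. Beside the ASPM locus they included 3581 bp in CEP295, 2900 bp in CEP250, 2437 bp in AKAP9 and 2193 bp in NIN. The median width was 245 bp for knockdown-only, 217 bp for control-only and 346 bp for shared loci.

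The few knockdown-only loci were not the weakest. Their median fold was 4.68 and 5.11 in knockdown replicates 1 and 2, while knockdown-only loci of the whole series had 3.71 and 3.73. Control-only loci had medians of 3.84 and 3.71 in control replicates 1 and 2, against 3.56 and 3.45 over the series. Loci of these genes were stronger in general. Over loci of any class the medians were 4.50 and 4.37 in knockdown and 4.36 and 4.17 in control. The series had 3.96 and 3.95 in knockdown and 3.86 and 3.66 in control. Background shares were not matched for fold. The strongest knockdown-only locus by its weaker list was in CEP128 (chr14:80908295-80908514; folds of 5.81 and 5.21 in knockdown), followed by CEP63 (5.95 and 5.11) and CEP290 (5.05 and 5.67). Across the 42 genes, the number of loci was only loosely related to gene length, with a Spearman rho of 0.32 and a Pearson r of 0.07; genes share libraries and are not independent.

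Other genes of the same structure were set beside them from a list of 89, all matched in the RefSeq table, of which 77 had a locus. They held 367 and 356 peaks in knockdown and 422 and 443 in control, a ratio of 0.836. Their knockdown-only share was 38 of 278 loci (13.7%, Wilson interval 10.1% to 18.2%) and their control-only share 74 of 344 (21.5%, 17.5% to 26.2%). The list held genes of both directions. CKAP5, a microtubule polymerase, had 1 knockdown-only and 7 control-only loci, KIAA0586 and PIBF1 0 and 6 each, NUMA1 and WDR90 0 and 5, SPICE1 0 and 4, CCDC14 and DCTN1 0 and 3, TPX2 1 and 3, and CCDC18 1 and 2. On the other side TACC2 had 5 knockdown-only and 0 control-only loci, C2CD3 4 and 1, TACC3 and CCNF 3 and 0, and SCLT1 3 and 2. Of the 50 with at least 10 peaks, 22 had fewer peaks in both knockdown lists and 5 had more, where the shares over all genes were 31.4% and 20%. The 38 kinesin genes, motor proteins that walk on microtubules, had 144 and 140 peaks in knockdown and 152 and 159 in control, with 11 of 102 loci knockdown-only (10.8%) and 14 of 120 control-only (11.7%). Over all loci these shares were 18.9% and 22.6%. The knockdown-only share of the centrosome and centriole genes was the lowest of these 3 sets and the whole series; no test of the difference between sets was made.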

How the data were processed

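Per the labels' protocols, RNA of the chromatin-associated fraction was depleted of ribosomal RNA, received an m6A spike-in, was fragmented and enriched with a commercial antibody kit, and went into stranded libraries. Build hg38 and, with no roles given, MACS2 2.2.7.1, HISAT2 2.1.0, SAMtools, Bowtie2 2.4.2 and Trim Galore 0.6.6 appear in the processing notes of the submitters. The deposited lists hold, per peak, a fold enrichment (a ratio), −log10 p and −log10 q values of the authors' peak caller and a score that was not used; the peak names show calls per library and strand, and the smallest deposited −log10 q was 2.00. If and how the spike-in or the inputs entered the calls is not stated in the labels.

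A peak belonged to a gene if its summit lay in the RefSeq span (GRCh38.p14, the build of hg38), on either strand; 7 of 530 loci were on the opposite strand and 37 also lay in another gene. Loci are peaks of the 4 lists merged at 1 bp of overlap on the same strand; a locus counts for a gene if any of its peaks does. Strands came from the RefSeq promoter table, and for 4 genes from most of their peaks. Background shares use all loci or genes treated alike, with the limits given above for gene ends. Merging and placing were tested on simulated data. Python 3.11.15, pandas 2.3.3 and SciPy 1.17.1 were used. The genes and lists were chosen with earlier results of these data known, the kinesin set and the non-overlap count after the data were seen. Named in full are genes with at least 2 loci of either moved kind, the 6 with the most shared loci and the 4 with the highest-ranked shared locus; of the other centrosome genes, those with at least 3 moved loci. The limits of 1000 bp, the 100 kb stretch and some single loci were chosen after their values were seen. Sequences of peaks away from promoter windows are not shown.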

Additional observations from a re-analysis of the deposited data

How the results depend on the processing

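The difference in peaks kept its direction under every alternative run, from -107.5 to -102.5 peaks leaving out 1 list each. Taking same-numbered lists as pairs (replicate block) gave -105 peaks and p = 0.50 in an exact sign-flip test, the smallest it can give; the replicate deviations of the groups correlated at 0.032 over 6181 genes, so the numbers were not read as pairs. With all lists cut to the length of the shortest the ratio was 0.78 (all peaks 1), and with a fold of at least 4 it was 0.848 (all peaks 1.06).

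The knockdown-only share of 4.26% was 12.6% with a fold of at least 4 (background 27.6%) and 9.80% with reciprocal overlap (background 24.4%). Leaving out 1 list each gave 6.98% to 9.69%, with backgrounds of 22.8% to 26.5%. It lay 14.6 to 17.3 percentage points under the background in these and the other alternatives run, while the control-only share lay between 2.59 points below and 3.25 points above it. Leaving out 1 list each gave control-only shares of 27.6% to 31.7%; fewer lists raise both shares by construction. Loci in all 4 lists fell to 98 with a fold of at least 4, where 3 genes lost every locus and 12 of 32 genes had fewer peaks in both knockdown lists (background 21.1%). Leaving out 1 list each, 1 to 2 genes lost and 0 to 1 gained every locus; with summits within 100 bp 1 gene gained every locus. Of 264 recomputed differences of control-only and knockdown-only loci in 22 named genes, 200 stayed within 1.5 times their value, 60 moved further without a change of sign and 4 changed sign. With a fold of at least 4 the difference was 0 in CENPJ, CEP152, CEP63, CEP97, CEP83, CEP164 and CEP170, and with a −log10 q of at least 20 it was 0 in CEP83, CEP164 and CEP170. The changes of sign were ASPM to -1 with a fold of at least 4, CDK5RAP2 to -3 without knockdown replicate 1, and CEP164 to 1 without knockdown replicate 2 and to 1 without control replicate 2. The cause was not tested. Read depth is unknown, so how far it limits the weaker peaks cannot be said.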
